A study of Mus musculus with 23 samples.

Results

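The cytosolic ribosomal protein genes, which encode the protein subunits of the ribosome outside mitochondria, were examined in mouse hippocampus. Members were chosen by name and by level. The names were symbols made of Rpl or Rps and a number, with or without a letter and a further digit, plus Rplp0, Rplp1, Rplp2 and Rpsa. The level was a mean above 5 CPM over all 23 libraries, where CPM is a gene's count scaled to the library's total of counts assigned to genes. Of 55335 genes in the count table, 89 had such a name and 69 were members, 42 of the large subunit and 27 of the small subunit. A further 16 matching names lay at or under 5 CPM, and 4 were left out by name (Rpl3, Rpl34, Rps3a1 and Rps3a3). Rpl11, at 3.83 CPM, was just below the limit, and Rpl13, at 6.17 CPM, and Rpl12, at 6.41 CPM, were just above it.

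Whole hippocampus was sequenced from female 3xTg mice, a model of Alzheimer's disease, and from WT strain controls of C57BL/6J x 129S1 background, to ask how expression differs between the strains and after inhibition of stearoyl-CoA desaturase (SCD). The 3xTg mice carry transgenes for mutant human APP and mutant human tau, both driven by a neuronal Thy1.2 element, and a mutant presenilin-1 knock-in, and the WT mice carry none of these and come from a line of their own. At 8 months the mice were untreated (WT-8M and 3xTg-8M, 4 each), and at 10 months they had received either 80 µM of the SCD inhibitor (WT-S, 3 mice, and 3xTg-S, 4 mice) or vehicle (WT-D and 3xTg-D, 4 each) from a pump into the lateral ventricle for 28 days. All 4 groups of 10 months thus share the operation and 0.8% DMSO.

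Most ribosomal proteins sit in the ribosome in equal number, and their mRNAs are short and abundant. Many begin with a run of pyrimidines directly at the cap, the terminal oligopyrimidine (TOP) sequence, through which mTORC1 signalling sets their translation. Because TOP control acts mainly on translation, mRNA levels as measured here do not report on it. The genome also holds many processed pseudogenes of these genes, which share their sequence.

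Libraries held 12802267 to 36686413 counts assigned to genes, and the members together took 0.402% to 0.560% of them. All 10 neuron markers were detected in every group. Some libraries stood apart. Ttr, the transthyretin of the choroid plexus, reached 314 CPM in 3xTg-8M replicate 4, 305 CPM in WT-S replicate 2, 210 CPM in 3xTg-S replicate 2 and 74.7 and 82.3 CPM in 3xTg-D replicates 1 and 3, against 37.7 CPM or less in the others. 3xTg-8M replicate 4 and 3xTg-S replicate 2 also had the 2 highest shares of reads mapping to several places, 15.1% and 13.9%. In bulk tissue, fewer cells of a type and less RNA per cell cannot be told apart.

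Start site sequences were at hand for 51 of the 69 members in RefSeq (GRCm38.p6). A TOP arrangement, searched on the strand of the gene as a C followed by at least 4 C or T and beginning within 3 bases of the annotated start, was present in 18 of the 51 (35.3%), in 12.3% of 9098 other genes above 5 CPM and in 11.4% of all 20784 genes with a promoter. It was found in 13 of 32 large subunit members and in 5 of 19 small subunit members. The letters TATAAA in the 50 bases before the start were found in 1 of 51 members (1.96%), Rpl22l1, in 1.17% of the other genes above 5 CPM and in 3.16% of all genes. Windows of 30 bases, 15 before the annotated start and 15 from the start on, are shown to let the arrangement be seen, with the pyrimidine run in capitals. The first 4, Rpl27a (chr7:109519180-109519209, plus strand), Rpl38 (chr11:114668565-114668594, plus strand), Rps18 (chr17:33955651-33955680, minus strand) and Rps15a (chr7:118116133-118116162, minus strand), hold it. Rplp0 (chr5:115559452-115559481, plus strand) and Rps28 (chr17:33824548-33824577, minus strand), to which results below refer, do not hold it in this window, which says only that these letters are not there. Annotated starts can lie some bases away from the start used in the tissue.
Rpl27a: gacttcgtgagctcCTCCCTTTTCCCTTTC
Rpl38: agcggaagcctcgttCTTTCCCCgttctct
Rps18: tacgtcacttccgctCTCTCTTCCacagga
Rps15a: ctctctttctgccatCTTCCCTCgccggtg
Rplp0: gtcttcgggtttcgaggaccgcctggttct
Rps28: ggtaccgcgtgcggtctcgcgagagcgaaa

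The members had a median level of 42.4 CPM, and levels ran from 6.17 CPM for Rpl13 to 524 CPM for Rpl4. Per kilobase of transcript, the highest were Rps15 (497 CPM per kb), Rps21 (387.98 CPM per kb) and Rpl4 (341 CPM per kb), and the lowest Rpl18 (5.08 CPM per kb), Rpl12 (5.16 CPM per kb) and Rpl28 (6.55 CPM per kb). The length is that of the principal annotated transcript, so these ranks depend on which transcript was taken. For Rpl18, that transcript starts 2614 bases away from the RefSeq start. The counted level went with how much of each gene's sequence was its own. Of all 75-base windows of a member's transcript, a median of 65.6% were found in no other gene, and of the windows in the coding sequence a median of 20.6%, with 16 of 68 members at 0. For 67 of the 69 members, some window was shared with another annotated gene. Across members, Spearman's rho between the mean CPM and the percentage of coding windows that were unique was 0.67 (n = 68 genes), and 0.49 (n = 69) with whole transcripts. With CPM per kb in place of CPM, rho was 0.61 for coding windows and 0.28 for whole transcripts. These are correlations across genes of the same libraries, and are given as a description. Why the levels of different members differ was not tested.

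**Figure D1:**
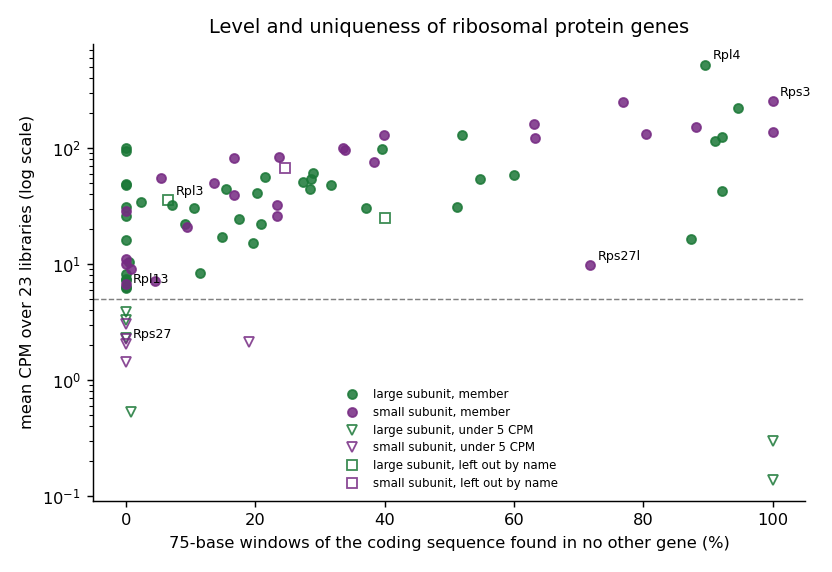
Mean CPM over the 23 libraries (log axis) against the percentage of 75-base windows of the coding sequence found in no other gene, for ribosomal protein genes with coding windows and a count. Filled points are members, open triangles genes at or under 5 CPM (dashed line) and open squares the genes left out by name, coloured by subunit. Levels rise towards the right, where Rpl4 and Rps3 lie, with Spearman's rho of 0.67 over 68 members.

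Some ribosomal protein genes have a variant paralog elsewhere in the genome. Rps27l was counted at 9.77 CPM, with 88.0% of its windows unique, and its parent Rps27 at 2.05 CPM, with 1.48% unique. Rpl22 stood at 115 CPM and its paralog Rpl22l1 at 44.2 CPM. Rpl7 stood at 98.4 CPM and Rpl7l1 at 42.4 CPM. The X-linked Rps4x had 101 CPM and Rps4l, annotated as a transcribed processed pseudogene, had 16.4 CPM. Rpl10l was listed at 0 against 16.1 CPM for Rpl10. Rpl39l (0.137 CPM) and Rpl3l (0.295 CPM) were near 0, against 31.3 CPM for Rpl39 and 35.4 CPM for Rpl3. Of the stalk proteins, which recruit the translation factors, Rplp1 had 131 CPM and Rplp2 53.9 CPM over all libraries. Rplp0 had group means of 75.6 to 87.6 CPM in WT mice and 31.96 to 37.9 CPM in 3xTg mice, so that its mean over all libraries describes neither strain.

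Between the strains at 8 months, 2 of the 69 members were called, that is, had a Benjamini-Hochberg adjusted p under 0.05 over all genes in edgeR's quasi-likelihood test. Of all 15483 genes tested, 2.58% were called. Rplp0, the base of the ribosomal stalk, was lower in 3xTg, and Rpl29, a small basic protein of the large subunit, was higher. At an unadjusted p under 0.05, 3 members were higher (8.55% of all genes) and 3 lower (8.82% of all genes), shares below the background. The median log2 fold change over the members was 0.067, against 0.006 over all genes, with 52 of 69 higher. With the trend of counts on transcript length, described below, removed from each library, the median was 0.013, with 38 of 69 higher, and Rplp1 was also called (0.25, adjusted p = 0.0405). Without 3xTg-8M replicate 4, whose Ttr and multimapping share were high, the median was -0.041 and 25 of 69 were higher. The largest positive values after Rpl29 were those of Rps28 (0.39, adjusted p = 0.372) and Rpl37 (0.35), and the most negative after Rplp0 those of Rps7 (-0.25) and Rps4l (-0.24), none of which passed the test.

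Rplp0 (ENSMUSG00000067274.10, chr5:115559467-115563727 in GRCm38) was counted at 77.1, 86.4, 97.2 and 89.8 CPM in WT-8M and at 40.3, 35.5, 32.4 and 43.3 CPM in 3xTg-8M. The groups did not overlap. The log2 fold change was -1.20 ± 0.10 (SE, 4 against 4 mice), 2.30-fold lower in 3xTg, with an adjusted p of 4.18e-05. At 10 months it was counted at 91.1, 64.4, 83.3 and 63.5 CPM in WT-D and at 32.5, 31.96, 31.4 and 32.1 CPM in 3xTg-D. All 3xTg-D libraries lay close together and below every WT-D library, and the log2 fold change was -1.26 ± 0.12 (adjusted p = 9.46e-05). WT-S libraries had 97.1, 97.1 and 65.0 CPM and 3xTg-S libraries 39.6, 42.3, 32.7 and 33.6 CPM, so the strains did not overlap under the inhibitor either. In 3xTg-S against WT-D the log2 fold change was -1.05 ± 0.13 (adjusted p = 0.000568).

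Processed pseudogenes that share 75-base windows with Rplp0 were higher in 3xTg at 8 months. These copies were looked at after the values of Rplp0 had been seen. The summed level of the 5 copies was 0.382, 0.926, 0.378 and 0.479 CPM in WT-8M and 19.6, 17.8, 17.6 and 21.1 CPM in 3xTg-8M. Most of it was Gm8730, a processed pseudogene on chromosome 8 with a mean of 0.0485 CPM in WT-8M and 13.9 CPM in 3xTg-8M (adjusted p = 7.83e-09), and Gm9625 on chromosome 13 (log2 fold change 3.19, adjusted p = 8.27e-05) and Rplp0-ps1 on chromosome 3 (mean of 0.0171 CPM in WT-8M and 1.02 CPM in 3xTg-8M, adjusted p = 0.000599) followed. Among the WT mice of 10 months, the sum was 0.967, 9.40, 0.921 and 9.40 CPM in WT-D and 0.847, 1.30 and 10.0 CPM in WT-S. WT-D replicates 2 and 4 and WT-S replicate 3 thus held copies between the other WT mice and the 3xTg mice, and these 3 libraries also had the lowest Rplp0 of the WT mice of 10 months. In 3xTg-D the sum was 16.2, 14.5, 18.1 and 16.5 CPM, and in 3xTg-S 17.8, 20.3, 20.3 and 15.005 CPM. At 10 months the copies tested did not pass. In 3xTg-D against WT-D, Gm8730 had a log2 fold change of 2.06 (adjusted p = 0.198) and Gm9625 of 0.78 (adjusted p = 0.334), and in 3xTg-S against WT-D these were 2.16 (adjusted p = 0.106) and 1.23 (adjusted p = 0.0867).

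Rplp0 and its copies added together were 88.2 ± 8.35 CPM (SD, n = 4) in WT-8M and 56.9 ± 6.44 CPM (n = 4) in 3xTg-8M. They came to 80.8 ± 9.14 CPM in WT-D, 48.3 ± 1.27 CPM in 3xTg-D (n = 4 each), 90.5 ± 13.4 CPM in WT-S (n = 3) and 55.4 ± 6.01 CPM in 3xTg-S (n = 4). With the copies added the strains were closer, and at both ages the sums still differed by more than the spread between mice. Of the tested genes within 1 Mb of Rplp0, 1 of 38 (Coq5) was called at 8 months, 0 of 37 in 3xTg-D against WT-D and 0 of 38 in 3xTg-S against WT-D. How reads of strain-specific sequence were shared out between Rplp0 and its copies was not tested. With WT-D replicates 2 and 4 left out, Rplp0 kept its call, with a log2 fold change of -1.48 in 3xTg-D against WT-D and -1.27 in 3xTg-S against WT-D.

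**Figure D2:**
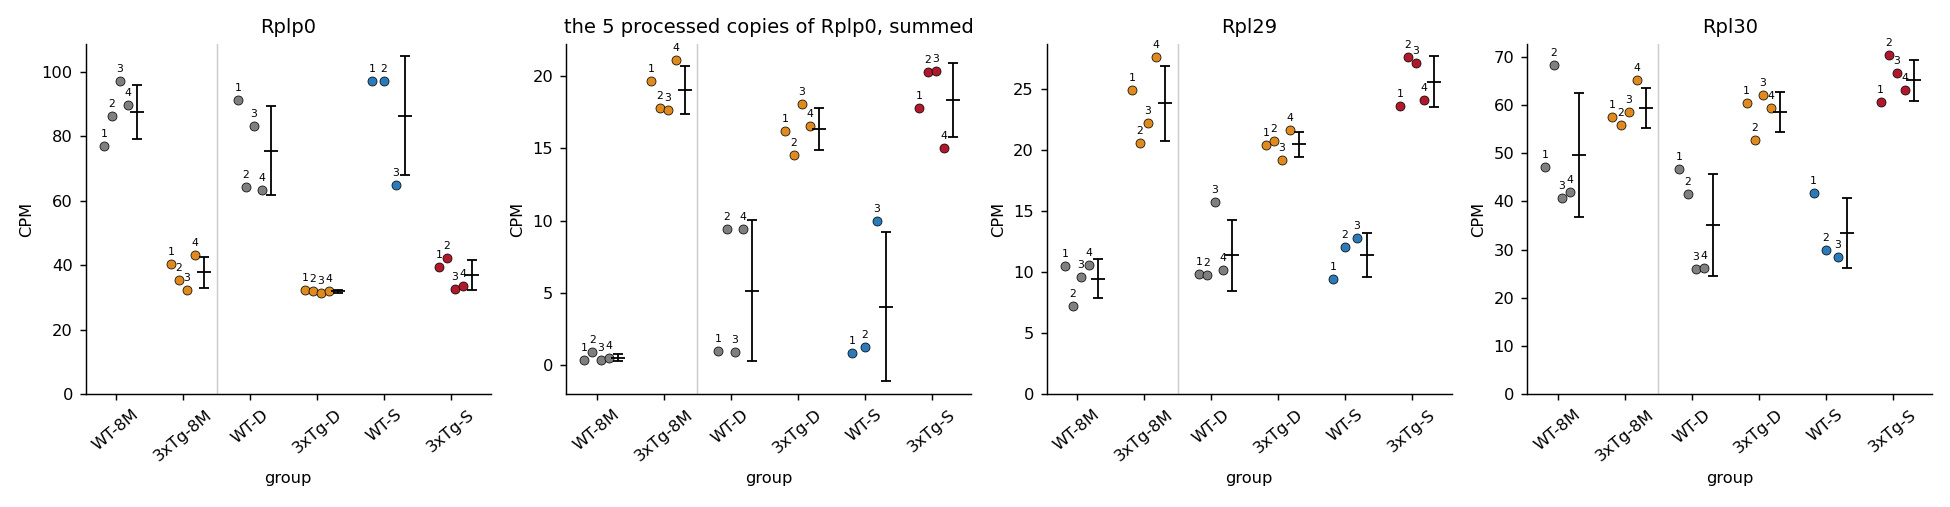
CPM in each library (points, numbered by replicate) with the group mean and SD (bars) for Rplp0, the sum of its 5 copies, Rpl29 and Rpl30 in the 6 groups. Rplp0 is lower and its copies and Rpl29 are higher in every 3xTg group, and WT-D replicates 2 and 4 and WT-S replicate 3 hold copies at 9.40 to 10.0 CPM.

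Rpl29 (ENSMUSG00000048758.14, chr9:106429454-106431568) was counted at 10.5, 7.19, 9.61 and 10.5 CPM in WT-8M and at 24.9, 20.5, 22.1 and 27.6 CPM in 3xTg-8M. The groups were far apart, with a log2 fold change of 1.32 ± 0.14 (adjusted p = 0.000199). In WT-D it was 9.84, 9.73, 15.7 and 10.1 CPM and in 3xTg-D 20.3, 20.7, 19.1 and 21.6 CPM. Here the difference was 0.83 ± 0.14 (adjusted p = 0.0121), and it was no longer called without the WT-D libraries with intermediate Rplp0 copies (0.66) or without the 3xTg-D libraries with high Ttr (0.91). Under the inhibitor, Rpl29 was counted at 9.39, 12.05 and 12.8 CPM in WT-S and at 23.6, 27.5, 27.1 and 24.1 CPM in 3xTg-S, again with no overlap, and 3xTg-S against WT-D gave 1.16 ± 0.14 (adjusted p = 0.000562). Rpl29 shares windows with 45 genes, of which Uimc1 held most counts and did not pass the test (log2 fold change -0.02 at 8 months). Another of them, the processed pseudogene Gm8210 on chromosome 1, was called at 8 months in the other direction, with a mean of 1.14 CPM in WT-8M and 0.0163 CPM in 3xTg-8M (adjusted p = 0.000118). At 10 months Gm8210 had means of 1.12 CPM in WT-D, 1.77 CPM in WT-S and 0.0174 CPM in 3xTg-D and was at 0 in 3xTg-S. With all 45 added, the level was 29.9 ± 1.76 CPM in WT-8M and 42.6 ± 2.97 CPM in 3xTg-8M (SD, n = 4). Of these sums, 17.9 and 17.6 CPM were Uimc1, a protein-coding gene, so they are not sums of Rpl29 and processed copies alone. At 10 months the sums were 31.6 ± 2.18 CPM in WT-D, 40.8 ± 0.598 CPM in 3xTg-D and 46.3 ± 2.47 CPM in 3xTg-S (n = 4 each). In WT-S the sum was 32.7 ± 3.77 CPM (n = 3). Of 32 tested genes within 1 Mb of Rpl29, 8 were called at 8 months (Abhd14a, Col6a4, Col6a5, Col6a6, Dusp7, Manf, Poc1a and Ppm1m), against 2.58% of all genes. At 10 months 1 of 33 (Col6a4) was called in 3xTg-D against WT-D, where 1.39% of all genes were, and 4 of 33 (Abhd14a, Col6a4, Poc1a and Ppm1m) in 3xTg-S against WT-D, where 2.29% were. The neighbours were looked at after the values had been seen, and sequence differences between the strains around the gene were not tested.

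Rpl30 (ENSMUSG00000058600.13, chr15:34440505-34443640), a large subunit protein whose yeast counterpart controls its own splicing, was counted at 46.7, 41.6, 26.1 and 26.1 CPM in WT-D and at 60.3, 52.6, 62.1 and 59.3 CPM in 3xTg-D. The groups did not overlap, and the difference of 0.72 ± 0.17 on the log2 scale did not pass the threshold (adjusted p = 0.0652). WT-S had 41.8, 30.0 and 28.5 CPM and 3xTg-S 60.5, 70.3, 66.6 and 63.1 CPM. In 3xTg-S against WT-D, Rpl30 was called, with 0.87 ± 0.16 (adjusted p = 0.0155). At 8 months WT-8M spanned 47.2, 68.4, 40.8 and 42.0 CPM and overlapped 3xTg-8M, at 57.6, 55.8, 58.6 and 65.2 CPM (0.27 ± 0.14, adjusted p = 0.367). It was called at 8 months without WT-8M replicate 2 (0.45) and in 3xTg-D against WT-D without WT-D replicate 1 (0.90). The 11 genes sharing windows with Rpl30 summed to under 0.7 CPM in every group. Within 1 Mb of Rpl30, 1 of 13 tested genes (Erich5) was called at 8 months (2.58% of all genes), 4 (Erich5, Gm48932, Matn2 and Pop1) in 3xTg-D against WT-D (1.39%) and 3 (Erich5, Laptm4b and Matn2) in 3xTg-S against WT-D (2.29%).

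Over the vehicle groups as a whole, 2 of 69 members were called in 3xTg-D against WT-D, where 1.39% of all genes were. At an unadjusted p under 0.05, 2 members were higher (6.25% of all genes) and 7 lower (6.87% of all genes). The median was -0.052, with 17 members higher, against -0.003 over all genes, and it was -0.017 with the length trend removed, with 26 higher. After Rplp0, the most negative values were those of Rps4l (-0.44 ± 0.12, adjusted p = 0.0986) and Rpl36a (-0.24), and the most positive after Rpl29 and Rpl30 was that of Rplp1 (0.07). In 3xTg-S against WT-D, which shares libraries with the other comparisons of 10 months, 3 of 69 members were called (2.29% of all genes). There, 17 were higher at an unadjusted p under 0.05 (9.01% of all genes) and 1 lower (7.88% of all genes), with a median of 0.13 and 65 of 69 higher. With the length trend removed, this median was 0.034, with 46 of 69 higher. Rplp1 was the next highest, at 0.38 ± 0.10 (adjusted p = 0.069), and Rps4l (-0.12) and Rpl5 (-0.10) were the lowest after Rplp0. Over the 23 libraries, Rplp0 (SD 0.66), Rpl29 (0.61) and Rpl30 (0.44) varied most in log2 CPM relative to the other members.

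In 3xTg mice, every member had a higher fitted level with the inhibitor than with vehicle, before the length trend was removed. The log2 fold change in 3xTg-S against 3xTg-D was above 0 for 69 of 69 members, from 0.03 to 0.39, with a median of 0.18 or 13.7%, while the median over all genes was -0.002. No member was called at an adjusted p under 0.05 (0% of all 15530 genes), and the smallest adjusted p of a member was 0.378. DESeq2's likelihood ratio test also called 0 members (0.0901% of all genes). At an unadjusted p under 0.05, 40 members were higher, against 5.65% of all genes, and 0 lower, against 5.51% of all genes. In 23 members every 3xTg-S library lay above every 3xTg-D library, against 4.14% of all genes. The members are not independent of each other, since they moved together from library to library, as given below.

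The largest values were those of Rps28 (0.39 ± 0.13), Rpl18 (0.38 ± 0.11) and Rpl36 (0.36 ± 0.15), and the smallest those of Rpl7l1 (0.03), Rpl10a (0.04) and Rpl10 (0.06). Rpl18 (chr7:45715457-45720836), a large subunit protein, was counted at 15.004, 13.1, 13.0 and 12.8 CPM in 3xTg-D and at 15.7, 21.4, 15.9 and 17.3 CPM in 3xTg-S. The groups did not overlap, but its adjusted p was 0.378. Rplp1 was counted at 126, 114, 122 and 132 CPM in 3xTg-D and at 148, 183, 145 and 138 CPM in 3xTg-S, also with no overlap (0.31 ± 0.08, adjusted p = 0.378). Rps28 was counted at 5.63, 6.08, 5.06 and 5.51 CPM in 3xTg-D and at 6.97, 9.02, 6.51 and 6.69 CPM in 3xTg-S. In all 3 genes 3xTg-S replicate 2 was the highest library. Rplp0 (0.21 ± 0.08, adjusted p = 0.396), Rpl29 (0.32 ± 0.08, adjusted p = 0.378) and Rpl30 (0.15 ± 0.07, adjusted p = 0.449), which differed between the strains, lay in the same range as the rest.

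The median was 0.19 over the 42 large subunit members and 0.17 over the 27 small subunit members. The 18 members with at least 80% unique windows had a median of 0.21, and the 20 with under 50% had 0.15. Neither pair of medians was tested for a difference. Without 3xTg-S replicate 2 the median was 0.12, with 68 of 69 members higher and 23 at an unadjusted p under 0.05 (3.34% of all genes). With the 3 libraries of high Ttr left out, it was 0.14, with 63 higher and 21 at that threshold (2.75% of all genes). The summed level of the 10 oligodendrocyte markers ran from 4030 to 6275 CPM in 3xTg-D and from 6188 to 7200 CPM in 3xTg-S, all 10 had a positive log2 fold change (median 0.28) and none was at 0 in either group. The 5 erythroid markers ran from 4.87 to 67.8 CPM in sum in 3xTg-D and from 30.4 to 213 CPM in 3xTg-S, with 5 of 5 positive (median 1.22). All 10 microglia markers (median 0.10), all 5 tested ependymal markers (0.27) and 7 of 8 endothelial markers (0.13) were also above 0, as were 5 of 8 tested choroid plexus markers (0.093). For the 8 astrocyte markers (-0.061) and the 10 neuron markers (-0.056) the median was below 0. With the length trend, described below, removed, the astrocyte median was 0.026 and the neuron median 0.0087, no longer below 0. The other medians were then 0.21 (oligodendrocyte), 1.05 (erythroid), 0.069 (microglia), 0.16 (ependymal), 0.097 (endothelial) and 0.012 (choroid plexus). None of these markers was called, and their part in the result was not tested.

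A member score, the mean over members of log2 CPM relative to each gene's mean at that age, summarised each library. It was 0.052, 0.27, 0.039 and 0.027 in 3xTg-S and -0.056, -0.17, -0.094 and -0.040 in 3xTg-D. The groups did not overlap, and 3xTg-S replicate 2 stood far above the other 3. WT-S had 0.018, 0.031 and 0.083 and WT-D 0.024, -0.023, -0.079 and -0.079, which overlapped. At 8 months 3xTg-8M spread from -0.12 to 0.30 and enclosed WT-8M, at -0.076 to 0.006. The highest score of all, 0.30, belonged to 3xTg-8M replicate 4. WT-S replicate 2, with Ttr at 305 CPM, had a score of 0.031.

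**Figure D3:**
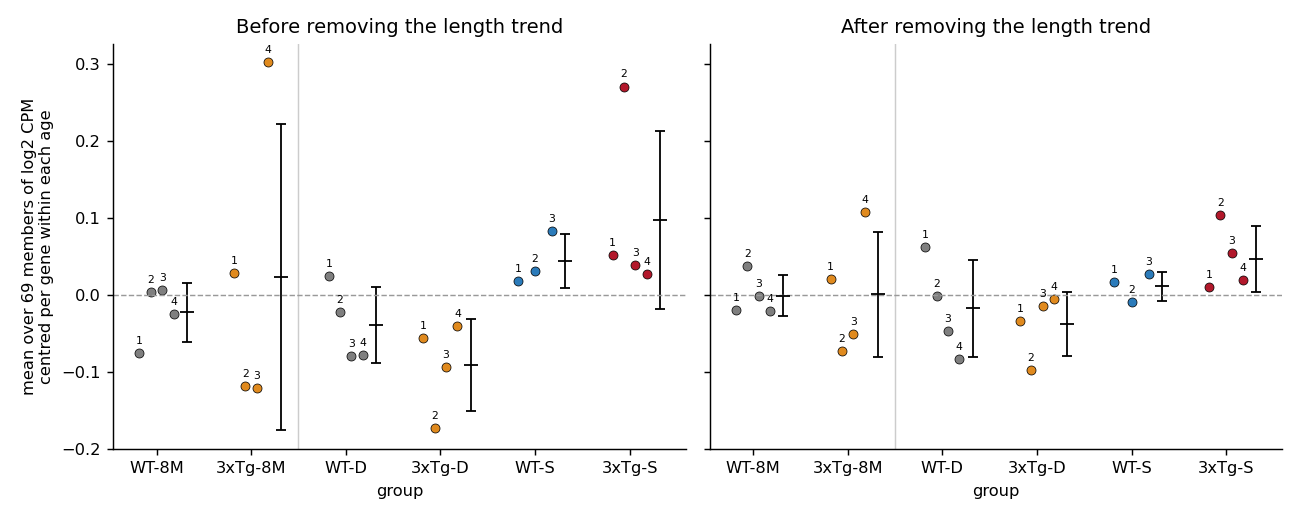
Member score of each library (log2 CPM relative to the mean at that age, averaged over 69 members), before and after removal of the trend on transcript length, by group. Points are libraries, numbered by replicate, and bars are group means and SD. Scores of 3xTg-S and 3xTg-D do not overlap in either case, and their difference goes from 0.188 to 0.0849.

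Ribosomal protein mRNAs are short, and short genes moved as a class. The median transcript length was 855 nt over the members and 3014 nt over genes above 1 CPM. In 3xTg-S against 3xTg-D, genes outside the family of under 1000 nt had a median log2 fold change of 0.15, with 77.0% higher. Those of 1000 to 2000 nt had 0.084, those of 2000 to 4000 nt 0.003 and those of 4000 nt or more -0.070. Fold changes thus fell with length, with Spearman's rho of -0.44 across 15452 genes outside the family and -0.27 across the 69 members, both given as descriptions. The slope of log2 CPM on the log10 of length, relative to the mean of the libraries of that age, was -0.33 in 3xTg-S replicate 2 and -0.42 in 3xTg-8M replicate 4, the 2 libraries in which the member score was highest.

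Each library was therefore also set against its own length trend, fitted on genes outside the family. With the trend removed, the median of the members in 3xTg-S against 3xTg-D was 0.068 or 4.79%, with 56 of 69 higher and 14 at an unadjusted p under 0.05 (3.30% of all genes under the same trend removal). No member was called (smallest adjusted p 0.794). The member score then ran from 0.010 to 0.10 in 3xTg-S (mean 0.047 ± 0.043, SD, n = 4) and from -0.097 to -0.006 in 3xTg-D (mean -0.038 ± 0.041, n = 4), which left the 2 groups without overlap, and the difference between their means was 0.0849 in place of 0.188. In WT mice the score after trend removal ran from -0.084 to 0.063 in WT-D, which enclosed WT-S, at -0.010 to 0.027. Over the members with at least 80% unique windows the median in 3xTg-S against 3xTg-D was 0.11 after trend removal, and over those with under 50% it was 0.02.

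**Figure D4:**
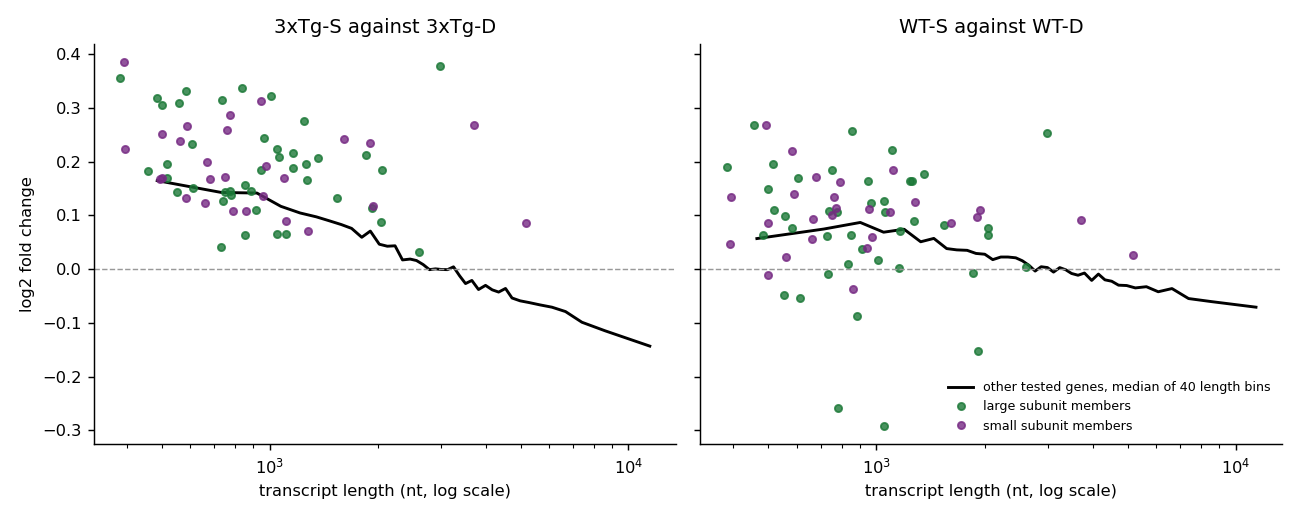
Log2 fold change in 3xTg-S against 3xTg-D and in WT-S against WT-D against transcript length in nt (log axis) for members (points, coloured by subunit), with the median of other tested genes in 40 length bins (line). The median of other genes falls with length, from 0.15 under 1000 nt to -0.070 at 4000 nt or more in 3xTg.

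In WT mice, 59 of 69 members were higher in WT-S than in WT-D, with a median of 0.097 or 6.97% against 0.002 over all genes. None was called (0% of all genes), by edgeR or by DESeq2. At an unadjusted p under 0.05, 9 members were higher (2.05% of all genes) and 1 lower (1.37% of all genes). In 9 members all WT-S libraries lay above all WT-D libraries (3.19% of all genes), and in 2 members all lay below (1.74% of all genes). Among the largest values were those of Rpl38 (0.27) and Rpl10 (0.26), and the smallest were those of Rpl31 (-0.29 ± 0.12), Rpl13 (-0.26) and Rpl15 (-0.15). Rpl31 was counted at 9.50, 8.25, 7.90 and 7.91 CPM in WT-D and at 6.62, 6.64 and 7.54 CPM in WT-S, with no overlap and an adjusted p of 0.981. After trend removal the median was 0.044, with 50 of 69 higher and 3 at an unadjusted p under 0.05 (1.33% of all genes).

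Over both strains, with strain in the model, the inhibitor groups had higher values in 66 of 69 members, with a median of 0.14 or 10.3%. None was called by edgeR (0% of all genes), the smallest adjusted p being 0.241, and DESeq2 called 2 (0.338% of all genes), Rpl32 and Rpl23. At an unadjusted p under 0.05, 44 were higher (6.79% of all genes) and 0 lower (6.79% of all genes). The highest were Rpl18 (0.32 ± 0.07), Rpl36 (0.28) and Rplp1 (0.23 ± 0.07), and the lowest Rpl31 (-0.09), Rpl13 (-0.04) and Rpl15 (-0.01). After trend removal the median was 0.063 and 12 members were higher at an unadjusted p under 0.05 (3.31% of all genes). The interaction of strain and inhibitor, which asks whether the difference was larger in 3xTg, called no member (0% of all genes) in edgeR or DESeq2. Its median was 0.10, with 58 of 69 above 0, 5 higher (1.21% of all genes) and 0 lower (1.11% of all genes) at an unadjusted p under 0.05. With the length trend removed, it was 0.057, with 48 above 0 and 3 higher at that threshold (1.28% of all genes). Among the extremes were Rpl13 (0.40), Rpl31 (0.36) and Rps28 (0.34) at the upper end and Rpl10 (-0.19) and Rpl28 (-0.15) at the lower. Without 3xTg-S replicate 2 the median of the interaction was 0.037. A difference between the strains in the response of the members was not shown.

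Other genes of the translation pathway were taken from lists. In 3xTg-S against 3xTg-D, TOP mRNAs that do not encode ribosomal proteins, such as those of elongation factors, were higher in 17 of 17, of which 3 passed an unadjusted p under 0.05, with a median of 0.09 (0.03 after trend removal). At that threshold, 5.65% of all genes were higher and 5.51% lower. Initiation and elongation factors were higher in 25 of 33 (6 higher and 1 lower at that threshold), with a median of 0.064 (0.038 after trend removal), and ribosome biogenesis factors, which assemble the subunits in the nucleolus, in 27 of 43 (6 higher and 1 lower), with a median of 0.034 (0.021 after trend removal). Regulators of mTORC1 and of TOP mRNAs were higher in 5 of 22 (0 higher and 2 lower), with a median of -0.041 that went to 0.00063 after trend removal. Mitochondrial ribosomal proteins, which belong to another ribosome, were higher in 72 of 77 (11 higher and 0 lower), with a median of 0.12 (0.057 after trend removal). None of these genes was called in that comparison. Between the strains at 8 months, Mrpl9 (0.40, adjusted p = 0.0218), Mrpl48 (0.40, adjusted p = 0.0259), Mrpl3 (0.25, adjusted p = 0.0385) and the biogenesis factor Utp18 (0.54, adjusted p = 0.0027) rose in 3xTg. In 3xTg-D against WT-D, Mrpl48 (0.39, adjusted p = 0.0106) and the initiation factor Eif3j1 (1.54, adjusted p = 0.0333) rose, as did the microglial complement genes C1qa (0.49, adjusted p = 0.0442) and C1qb (0.48, adjusted p = 0.0404). In 3xTg-S against WT-D, Mrpl9 (0.43), Mrpl48 (0.53) and Eif3j1 (1.64) rose and Mrps2 (-0.31) fell. In the same comparison 6 of 10 microglia and 4 of 10 oligodendrocyte markers and Hbb-bt were called higher, where 2.29% of all genes were called. Both values of Eif3j1 rest on the same WT-D libraries. Among the 33 initiation and elongation factors, the largest log2 fold change was 1.08 in WT-S against WT-D and 0.62 at 8 months. None of these factors was called in either comparison. How far low values in WT-D account for the values of Eif3j1 was not tested.

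The members moved together across libraries. Pearson's r between pairs of members had a median of 0.65 over the 8 libraries of 8 months and 0.51 over the 15 of 10 months, where 92.4% of 2346 pairs were positive. The genes outside the family whose pattern over the 15 libraries was most like the mean of the members were Timm8b (r = 0.97), Uqcrh (0.97), Pomp (0.96), Pfdn1 (0.95), Cox7b (0.95), Psmb1 (0.94), Uqcrq (0.93), Psmb4 (0.93), Pfdn5 (0.93) and Ndufv2 (0.93). They encode subunits of the respiratory chain, the proteasome and prefoldin and factors for mitochondrial import and proteasome assembly, and their transcripts measure 518 to 1758 nt. All these values share the same libraries, their depth and their length trend. They include 3xTg-8M replicate 4 (member score 0.30, next highest at 8 months 0.029) and 3xTg-S replicate 2 (0.27, next highest at 10 months 0.083). The correlations were not computed without these libraries.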

How the data were processed

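The deposited values are raw counts of reads per gene, made by the authors with Trimmomatic 0.35, STAR 2.5.1b and GRCm38, per the submitters' processing notes. The strand setting of the counting and any collapsing of molecular identifiers are not given in the sources used here. Reads not assigned to a gene, 24.7% to 30.9% per library, stayed out of library sizes and tests. Each sample is a mouse, per the series' design text, and members and lists were chosen with earlier results of these data known.

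Counts were filtered with filterByExpr, scaled by TMM and tested with edgeR 4.0.16 (quasi-likelihood, in R 4.3.3), group against group as in the study. A standard error is the size of the log2 fold change divided by the square root of F. DESeq2 1.42.0, other scalings and filters, and leaving out replicates were alternatives. The length trend was a spline of log2 CPM (prior count 2) on log10 length (5 degrees of freedom) over genes that are not members, entered as an offset. Lengths and 75-base windows came from principal transcripts of Gencode M21. The fits were also run on simulated data, and the outcome is not reported here. No pair of replicates agreed within sampling noise, as copies of a library would.

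Named genes are members called, the 3 highest and 3 lowest fold changes of each comparison, extremes of CPM per kb and of relative variation, the members nearest the limit, variant paralogs with their parents, stalk proteins, called genes of other lists and the 10 most alike genes. Promoter windows, copies, neighbours, Rpl22l1's motif and the libraries left out together were chosen after values were seen. Where a gene that this rule names is absent from the text, it is not reported here.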

Additional observations from a re-analysis of the deposited data

Results flagged for a closer look

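Of 30 sets of 4 libraries tested for a value far from the rest, 2 held one, where chance gives about 1 in 20. The member score of 3xTg-S replicate 2 was 0.271, against 0.052 in the nearest and 0.027 in the farthest of the other 3 libraries. Rpl29 in WT-D replicate 3 was counted at 15.7 CPM, against 10.1 CPM in the nearest and 9.73 CPM in the farthest of the other 3.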

How the results depend on the processing

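Rplp0 was called in the 3 comparisons of strains in which it is reported, and Rpl30 in 3xTg-S against WT-D, under every alternative run. Without a filter on low counts, 4 members were called in 3xTg-D against WT-D (2.57% of all genes), 3 in 3xTg-S against 3xTg-D (Rplp1, Rpl14, Rpl41; 0.365%), 7 in 3xTg-S against WT-D (3.68%) and 2 for the inhibitor over both strains (Rpl18, Rplp1; 0.285%). The study's own threshold, a p under 0.01 with no adjustment, was also applied to the p of the edgeR test. The study itself took its p from a DESeq2 likelihood ratio test with another normalization, so these are not its calls. The numbers in the same order were 5 (4.95% of all genes), 13 (2.52%), 6 (6.59%) and 22 (4.00%), and 1 in WT-S against WT-D (0.375%). DESeq2 called 5 in 3xTg-S against WT-D (3.71%) and 2 over both strains (0.338%), and a fit of all 15 libraries called 5 in 3xTg-S against WT-D (2.65%). With the libraries of intermediate Rplp0 copies or of high Ttr left out, 2 alternatives chosen after seeing the data, 1 member was called in 3xTg-D against WT-D (Rplp0; 1.15% and 0.914% of all genes).

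Removing the length trend moved the median of 3xTg-S against 3xTg-D to 0.068 (0.073 with GC), of WT-S against WT-D to 0.044 (0.048 with GC, 0.050 with merged exon length, 0.052 with coding length), of 3xTg-S against WT-D to 0.034 (0.034 with GC, 0.032 with coding length) and of the inhibitor over both strains to 0.063 (0.060 with GC). Merged exon length and coding length were used in every comparison, and where no median is given for them here, it is not reported. For 3xTg-S against 3xTg-D, how far the median depends on the definition of length is therefore not shown. The difference in member score between 3xTg-S and 3xTg-D was 0.0849, and 0.188 before the trend was removed. With a block of 4 consecutive animal numbers, 29 members (4.91% of all genes) in place of 40 had p under 0.05 before adjustment for the inhibitor in 3xTg. The labels do not say what such a run of numbers shares. The alternative with windows unique in the genome was not run.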
